A study of Mus musculus with 6 samples.

Results

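The miR-30 family was followed in the aortas of 6 mice through its 5 assays on quantitative real-time PCR arrays, listed as mmu-miR-30a, mmu-miR-30b, mmu-miR-30c, mmu-miR-30d and mmu-miR-30e. They were picked by exact name from the 596 mouse miRNA assays of the array, after removal of the trailing assay number and without names ending in an asterisk, the mark of a passenger strand. All mice were female, lacked apolipoprotein E (Apoe-/-) and carried a tamoxifen-inducible Cre recombinase driven by the VE-Cadherin promoter, which is active in endothelial cells (ECs). EC-Dicerflox mice (VE-Cadherin-CreERT2Dicer1flox/flox/Apoe-/-, n = 3) also carried Dicer alleles that Cre deletes, whereas in EC-DicerWT littermates (VE-Cadherin-CreERT2Dicer1WT/WT/Apoe-/-, n = 3) both Dicer alleles were intact. Both groups received tamoxifen on 5 days at 2 mg per 20 g body weight and, from 6 to 8 weeks of age, a high-fat diet with 0.15% cholesterol, 21% crude fat and 19.5% casein for 12 weeks. RNA came from the whole aorta, which also holds smooth muscle and other cells, to which the deletion was not directed. Fewer cells of a type and less RNA per cell therefore cannot be told apart. The comparison asks whether the levels of these miRNAs in the aorta differ after Dicer deletion is induced in ECs. The study reported Dicer mRNA in isolated aortic ECs as decreased, not as absent. It also reported less Dicer mRNA in the aortas of EC-Dicerflox than of EC-DicerWT mice after 12 weeks of the diet. Dicer mRNA itself was not analysed here.

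A miRNA binds its target mRNAs mainly through its seed, the bases 2 to 8 from the 5′ end, and miRNAs with the same seed form a family with shared targets. The miR-30 family is abundant in heart and vessels, where it represses the profibrotic connective tissue growth factor. In ECs it is induced by laminar flow through KLF2, and it represses angiopoietin-2, a mediator of vascular inflammation, and the Notch ligand Dll4. In liver, miR-30c represses microsomal triglyceride transfer protein and thereby lipoprotein assembly. Dicer releases each mature miR-30 from its hairpin by cutting off the loop, and with few exceptions no mature miRNA forms without it.

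The mature sequences are given because the family is defined by its seed, which is in capitals, and because assays of near-identical members may share signal. They were taken from RefSeq (build GRCm38.p6), in which 3 of the 5 members could be matched, with the assay name read as the 5′ strand. MiR-384-5p was the one other assay on the array whose mature RNA in RefSeq has this seed.
miR-30a: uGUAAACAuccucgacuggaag
miR-30c: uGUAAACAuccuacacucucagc
miR-30e: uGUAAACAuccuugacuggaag
miR-384-5p: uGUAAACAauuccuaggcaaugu

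MiR-30a and miR-30e are identical in 21 of 22 bases and differ by C13U, counted from 1 at the 5′ end of miR-30a. Whether the miR-30a and miR-30e assays detect each other's target was not tested. MiR-30a and miR-30c share their first 12 bases and 17 of the 22 compared, and differ by C13A, G14C, G18C, G19U and A20C. MiR-384-5p shares its first 8 bases with miR-30a and differs at 10 of 22 compared bases.

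The hairpins cut by Dicer are printed with both mature strands in capitals and the loop between them in lower case, since Dicer acts on this loop. MiR-30c is made from 2 hairpins, so its assay sums 2 loci.
Mir30a: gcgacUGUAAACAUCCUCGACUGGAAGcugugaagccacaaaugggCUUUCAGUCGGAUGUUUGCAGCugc
Mir30c-2: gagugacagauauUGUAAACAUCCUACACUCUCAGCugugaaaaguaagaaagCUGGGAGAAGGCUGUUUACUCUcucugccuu
Mir30c-1: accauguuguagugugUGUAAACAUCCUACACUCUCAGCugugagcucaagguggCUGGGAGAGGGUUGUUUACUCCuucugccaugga
Mir30e: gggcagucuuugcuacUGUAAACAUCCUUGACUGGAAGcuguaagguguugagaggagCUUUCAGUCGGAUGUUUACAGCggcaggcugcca

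Mir30a lies at chr1:23272269-23272339 on the + strand and Mir30c-2 at chr1:23291701-23291784 on the same strand, with 19361 bases between them and no other annotated gene of the RefSeq table overlapping either. Mir30c-1 (chr4:120769534-120769622) and Mir30e (chr4:120772606-120772697) are both on the - strand, 2983 bases apart, within the bounds of Nfyc, which encodes a subunit of a transcription factor. MiR-30c thus shares one locus with miR-30a and another with miR-30e.

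All values are raw cycle thresholds (Ct), which count the PCR cycles needed to reach a set signal. Less RNA gives a higher Ct, and a cycle equals a log2 unit where the product doubles in each cycle, which was assumed. Of the 596 miRNA assays, between 421 and 454 were detected per sample, with a Ct under 40, and 394 were detected in all 6. The third replicates of both groups stood apart. Over the assays detected in all samples their mean Ct was above that of the other 4 samples by a median of 0.57 cycles. Among the control small RNAs this shift was 1.50 cycles for U87, 0.93 for Y1, 0.61 for snoRNA202, 0.57 for snoRNA135 and -0.21 for U6. The mean of these 5 controls served as the reference, and its Ct was between 19.4 and 20.4. Among miRNAs that mark cell types, the endothelial miR-126-3p and miR-126-5p had Ct values from 17.2 to 21.3, the smooth muscle miR-143 and miR-145 from 14.5 to 16.5, and both pairs were detected in all 6 aortas. Relative to the reference, the amounts of both endothelial miRNAs were added on the linear scale. The log2 of this sum was between 1.98 and 2.76 in EC-Dicerflox and between 2.14 and 2.82 in EC-DicerWT aortas. The striated muscle miR-133a (mean Ct of 18.6) and the hepatocyte miR-122 (Ct from 22.3 to 26.7) were detected in all of them as well.

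All 5 members were readily detected in every aorta. The Ct of mmu-miR-30b was 16.28, 16.39 and 16.41 in the EC-Dicerflox and 16.24, 16.05 and 16.40 in the EC-DicerWT samples. That of mmu-miR-30c was 16.36, 16.63 and 16.69 in EC-Dicerflox and 16.38, 16.20 and 16.69 in EC-DicerWT samples. In both miRNAs the lowest Ct was in EC-DicerWT replicate 2, the groups overlapped, and the lowest and the highest aorta were 0.35 cycles apart for miR-30b and 0.48 cycles for miR-30c. By mean Ct they ranked 8 and 9 from the earliest of the 394 assays detected in all samples.

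Mmu-miR-30a, encoded near Mir30c-2, had a Ct of 18.60, 19.02 and 18.97 in EC-Dicerflox and 18.61, 18.64 and 18.92 in EC-DicerWT samples. Mmu-miR-30e, encoded near Mir30c-1, had a Ct of 19.97, 20.37 and 20.73 in EC-Dicerflox and 19.96, 19.95 and 20.61 in EC-DicerWT samples. For mmu-miR-30d the values were 19.98, 20.41 and 21.00 in EC-Dicerflox and 20.00, 19.82 and 20.88 in EC-DicerWT samples. In miR-30e and miR-30d the third replicate was the highest of its group in both groups and the pair lay above the other 4 samples, whereas in miR-30a EC-Dicerflox replicate 2 was the highest. These members ranked 26, 49 and 51 by mean Ct.

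**Figure D1:**
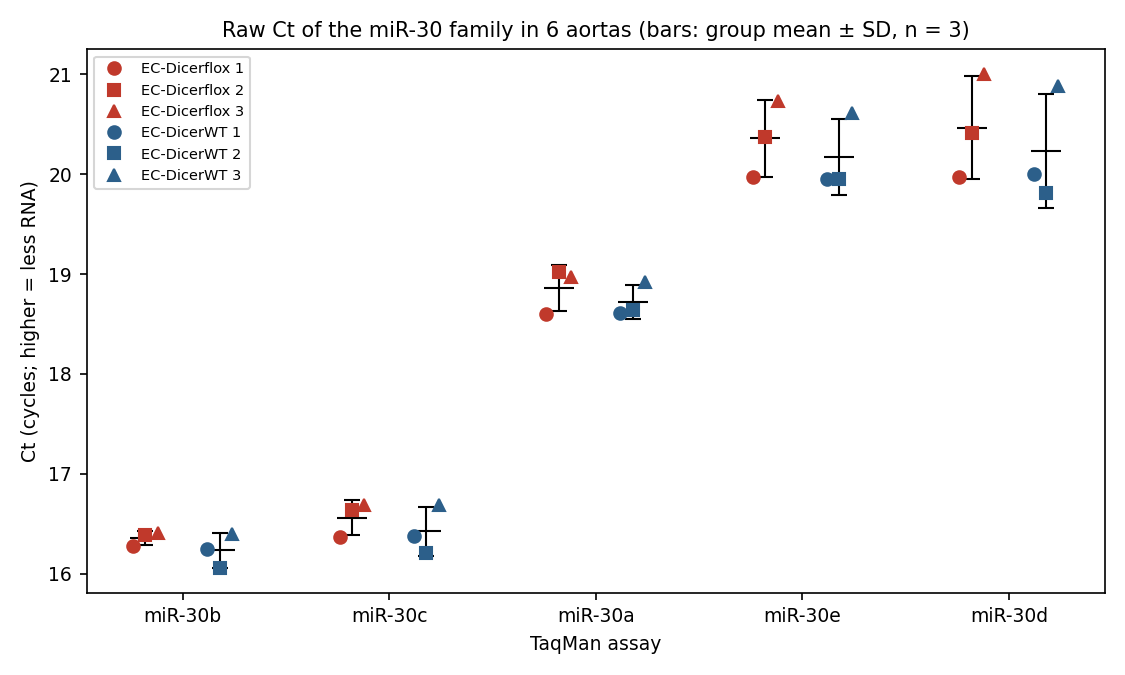
Raw Ct in cycles (vertical axis, higher means less RNA) of the 5 miR-30 assays (horizontal axis) in each of 6 aortas, coloured by group and with a marker shape for each replicate number, with bars for the group mean ± SD (n = 3). The groups overlap in all 5 assays, and the third replicates (triangles) stand above the others in all members but miR-30a, by most in miR-30e and miR-30d.

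The order by Ct, from early to late, was miR-30b, miR-30c, miR-30a, miR-30e and miR-30d, and it is an order of assay signal, since primers of different assays can differ in efficiency. MiR-30c came 0.20 ± 0.08 cycles (SD, n = 6) after miR-30b, in this order in 6 of 6 aortas, although the ranges of both over the aortas overlapped. MiR-30a followed miR-30c by 2.30 ± 0.09 cycles (SD, n = 6) and miR-30e followed miR-30a by 1.47 ± 0.20 cycles (SD, n = 6), with no overlap. MiR-30d and miR-30e did not differ beyond their spread (0.08 ± 0.16 cycles, SD, n = 6), and miR-30d was the later one in 5 of 6 aortas. From the first to the last member the distance was 4.05 ± 0.39 cycles (SD, n = 6).

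The members differed in how much their raw Ct, with no reference subtracted, varied between the aortas. The SD of the Ct over the 6 aortas was 0.14 cycles for miR-30b, 0.20 for miR-30a, 0.20 for miR-30c, 0.36 for miR-30e and 0.50 for miR-30d, against a median of 0.60 over the 394 assays. Since early assays vary less, each was also set beside the other assays within 1 cycle of its mean Ct. Of 20 such assays 0 had a smaller SD than miR-30a, of 6 assays 0 had a smaller SD than miR-30b and 2 a smaller one than miR-30c. For miR-30e 15 of 37 and for miR-30d 26 of 36 assays had a smaller SD. The mean Ct of the third replicates was above that of the other samples by 0.16 cycles in miR-30b, 0.23 in miR-30a, 0.29 in miR-30c, 0.61 in miR-30e and 0.89 in miR-30d.

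**Figure D2:**
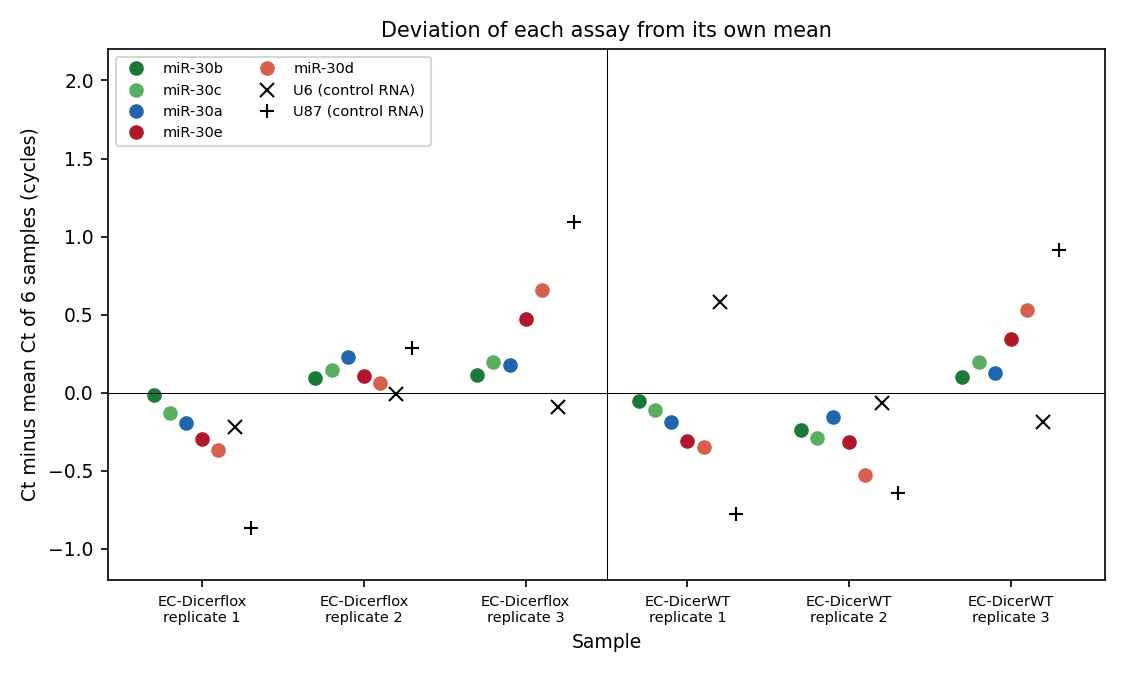
Ct minus the assay's own mean over the 6 samples, in cycles (vertical axis), for the 5 miR-30 assays and the control RNAs U6 and U87 in each sample (horizontal axis, EC-Dicerflox left and EC-DicerWT right of the line). In the third replicates all 5 members and U87 lie above 0 in both groups, and among the members miR-30d lies furthest from 0 and miR-30b nearest to it.

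Endothelial deletion of Dicer was not accompanied by a detectable change of any miR-30 member in the whole aorta. The level of a miRNA was taken as the reference Ct minus its Ct, on the log2 scale. MiR-30b had a level of 3.16, 3.48 and 3.95 in EC-Dicerflox and of 3.33, 3.39 and 3.77 in EC-DicerWT aortas. The level of miR-30c was 3.08, 3.24 and 3.67 in EC-Dicerflox and 3.19, 3.24 and 3.48 in EC-DicerWT aortas. In both, the EC-Dicerflox values spanned those of EC-DicerWT on either side. The difference of the group means was 0.04 ± 0.29 (SE) for miR-30b, which puts EC-Dicerflox at 103% of EC-DicerWT, with a 95% interval from 61.1% to 172%. For miR-30c it was 0.02 ± 0.25 (SE), or 102% with an interval from 65.5% to 158%.

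The level of miR-30a was 0.84, 0.86 and 1.39 in EC-Dicerflox and 0.97, 0.81 and 1.25 in EC-DicerWT aortas. The groups differed by 0.02 ± 0.26 (SE), or 101% with an interval from 63.9% to 161%, and the third replicate was the highest in both. MiR-30e had a level of -0.53, -0.50 and -0.38 in EC-Dicerflox and -0.39, -0.50 and -0.44 in EC-DicerWT aortas. The difference was -0.03 ± 0.19 (SE), or 98.3% with an interval from 70.7% to 137%. The level of miR-30d was -0.54, -0.54 and -0.65 in EC-Dicerflox and -0.43, -0.37 and -0.71 in EC-DicerWT aortas. The difference was -0.07 ± 0.21 (SE), or 95.2% with an interval from 66.4% to 136%, and here the third replicate was the lowest in both groups. In all 5 members the groups overlapped, and in all but miR-30d the change was smaller than the SD of the levels within each group.

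By limma, 0 of the 5 members had an adjusted P under 0.05, as did 0 of the 439 tested assays (0%). At an unadjusted P under 0.05, 0 of the 5 members passed, beside 4.78% of all tested assays. The unadjusted P values of the members lay between 0.74 and 0.94, each with an adjusted P of 0.99, and the exact permutation P between 0.6 and 0.9. With 3 against 3 mice this exact test cannot go below 0.1. In 0 of the 5 did the groups not overlap, beside 9.79% of all tested assays. A change below 0 was found in 2 members (miR-30d and miR-30e), beside 61.7% of all tested assays. The median change was 0.02 over the 5 members and -0.10 over all tested assays. Against the mean of the 5 controls, the lower ends of the intervals lay between 61.1% and 70.7% of the EC-DicerWT level. A loss of that size or smaller was thus not excluded with this number of mice. These bounds hold for this reference only. With U6 alone the SE of the change was larger, from 0.44 for miR-30b to 0.60 for miR-30d, so the intervals were wider. Without the third replicates the changes were -0.04 for miR-30a, -0.04 for miR-30b, -0.06 for miR-30c, -0.14 for miR-30d and -0.07 for miR-30e, with adjusted limma P values from 0.93 to 0.96.

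**Figure D3:**
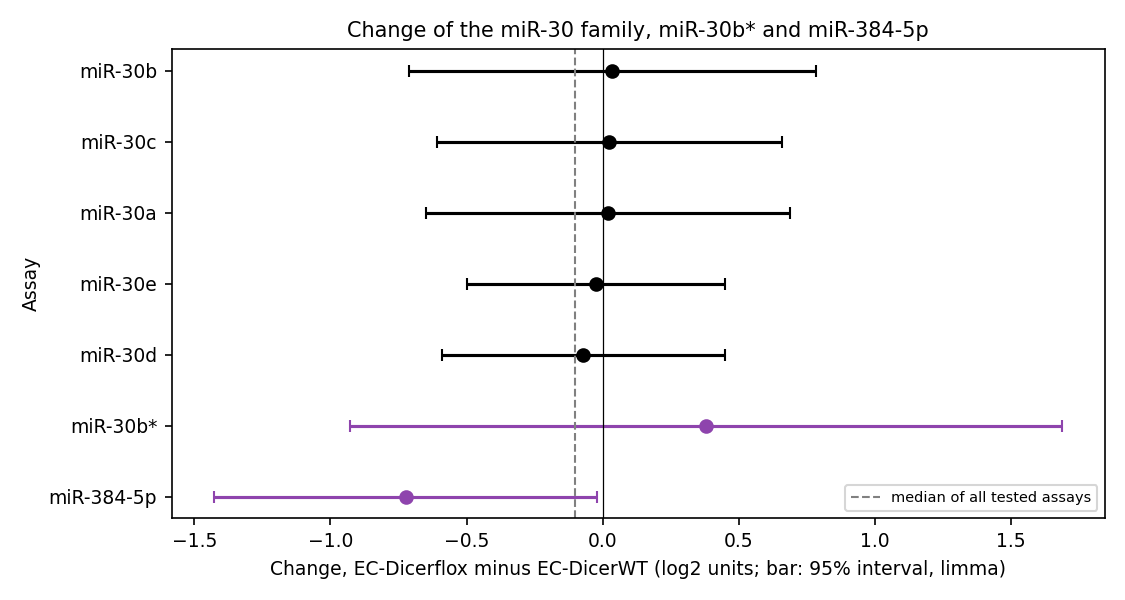
Change between EC-Dicerflox and EC-DicerWT aortas in log2 units (horizontal axis) with its 95% interval from limma for the 5 miR-30 assays, miR-30b* and miR-384-5p (vertical axis), and the median of all tested assays as a dashed line. The 5 members lie between -0.07 and 0.04, and their intervals include 0.

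The sign of these changes depended on the reference. With U6 alone the changes ran from -0.45 for miR-30d to -0.34 for miR-30b, but the median of all tested assays was then -0.48, so that the members again lay slightly above it. With the mean of snoRNA135, snoRNA202 and U6, which leaves out the controls that moved most in the third replicates, the mean change of the family was -0.12 and the median of all assays -0.22. With the global mean of the miRNAs these values were 0.05 and -0.05. Under each of these references and with snoRNA135 alone or a reference per card, 0 members had an unadjusted limma P under 0.05. Of the 439 tested assays, between 11 (U6 alone) and 25 (reference per card) passed it under these references. The mean Ct of U6 differed by -0.22 cycles (EC-Dicerflox minus EC-DicerWT), whereas that of the other 4 controls differed by 0.15 to 0.34 cycles.

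Which members varied least within the groups depended on the reference. The pooled SD within groups of the level against the 5 controls was 0.07 for miR-30e and 0.14 for miR-30d but 0.33 for miR-30b, while in raw Ct it was 0.38 for miR-30e and 0.54 for miR-30d but 0.13 for miR-30b. In the third replicates the reference Ct lay 0.68 cycles above that of the other samples, nearer to the shift of miR-30e and miR-30d than to that of miR-30b.

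**Figure D4:**
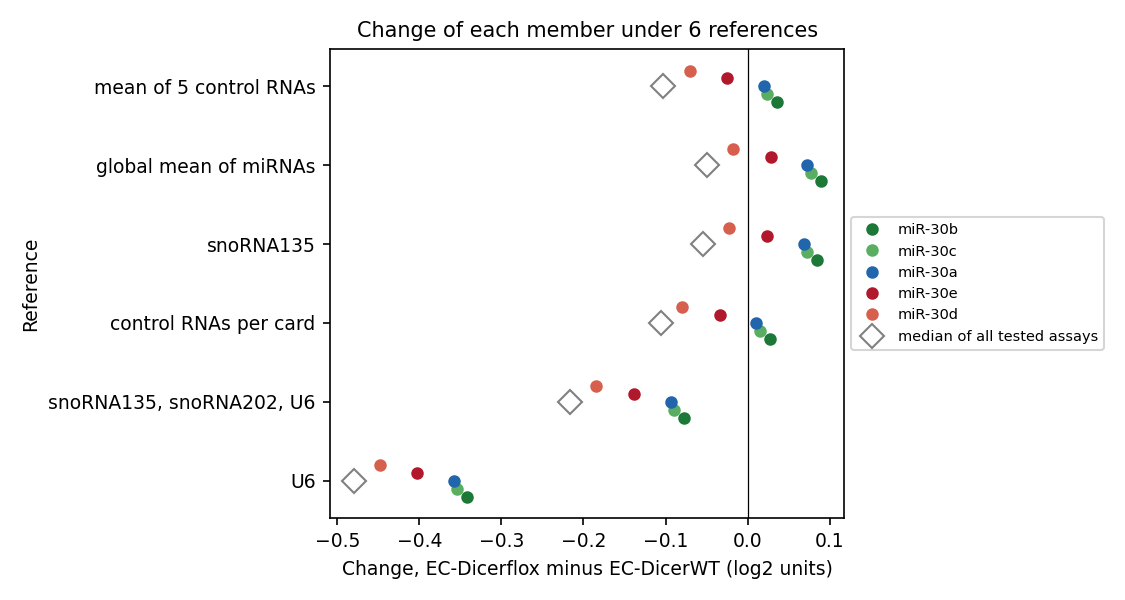
Change of each miR-30 member between EC-Dicerflox and EC-DicerWT aortas in log2 units (horizontal axis) under 6 references (vertical axis), with the median of all tested assays as a grey diamond. The distances between members are fixed, since every reference subtracts the same value from all of them, and with U6 alone the members lie between -0.45 and -0.34 and the median of all assays at -0.48.

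A difference between members within a sample needs no reference RNA. Of the 10 pairs of members, 0 had groups that did not overlap, and the difference between EC-Dicerflox and EC-DicerWT aortas was between 0.004 cycles for miR-30a against miR-30c and 0.11 cycles for miR-30d against miR-30b (exact permutation P between 0.5 and 1, adjusted P of 1 over the 10 pairs). For the neighbours on chromosome 1, miR-30a lagged miR-30c by a mean of 2.30 cycles (SD 0.08) with and 2.30 cycles (SD 0.12) without endothelial deletion of Dicer. For the neighbours on chromosome 4, the lag of miR-30e behind miR-30c was 3.80 cycles (SD 0.23) and 3.75 cycles (SD 0.17), respectively. MiR-30d lagged miR-30b by 3.70, 4.02 and 4.60 cycles in EC-Dicerflox and by 3.75, 3.76 and 4.48 cycles in EC-DicerWT aortas. The third replicates had the highest difference in both groups, and this held for 8 of the 10 pairs. No test of this was made, since each group held a single such mouse.

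The array held 1 assay for the other strand of a miR-30 hairpin, miR-30b*. Its Ct was 25.74, 27.43 and 27.90 in EC-Dicerflox and 26.45, 26.96 and 28.32 in EC-DicerWT aortas, and the groups overlapped. The mean lag behind the guide strand miR-30b was 10.7 cycles (SD 1.07) in EC-Dicerflox and 11.0 cycles (SD 0.86) in EC-DicerWT mice, a difference of -0.34 cycles (exact permutation P of 0.7). The distance between the strands was thus large in every aorta, from 9.46 cycles in EC-Dicerflox replicate 1 to 11.9 cycles in EC-DicerWT replicate 3. Both strands were measured on different cards with separate control assays, so card and strand cannot be told apart. The level of miR-30b* differed between the groups by 0.38 ± 0.52 (SE), with limma P values of 0.49 before and 0.99 after adjustment.

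MiR-384-5p, which has the same seed but is encoded on the X chromosome (chrX:105344332-105344354, - strand), had a far later Ct than the family, and its groups did not overlap. Its Ct was 28.88, 28.72 and 29.42 in EC-Dicerflox and 27.67, 28.13 and 28.56 in EC-DicerWT aortas, with every EC-Dicerflox sample above every EC-DicerWT sample. Its level was -9.44, -8.85 and -9.06 in EC-Dicerflox and -8.10, -8.69 and -8.39 in EC-DicerWT aortas. The difference was -0.72 ± 0.28 (SE), which puts EC-Dicerflox at 60.6% of EC-DicerWT, with an interval from 37.2% to 98.7%. Its limma P was 0.046 before and 0.98 after adjustment, so it did not pass the threshold over all assays. Groups in which EC-Dicerflox was lower without overlap were found in 7.06% of all tested assays. With the replicates 1 and 2 alone the change was -0.75 with an unadjusted limma P of 0.15. MiR-384-3p, from the other strand of the same hairpin and named after its values were seen, had a level of -12.90, -12.90 and -12.87 in EC-Dicerflox and -12.01, -12.71 and -12.64 in EC-DicerWT aortas. In these levels its groups did not overlap, whereas in raw Ct they did, unlike those of miR-384-5p. Its Ct was late, at 32.335, 32.767 and 33.224 in EC-Dicerflox and 31.582, 32.154 and 32.811 in EC-DicerWT aortas. The difference in level was -0.43 ± 0.26 (SE), with limma P values of 0.16 before and 0.99 after adjustment.

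Set against each member within the same sample, miR-384-5p came later in EC-Dicerflox aortas than in those of EC-DicerWT mice by 0.74 cycles relative to miR-30a, 0.76 to miR-30b, 0.75 to miR-30c, 0.65 to miR-30d and 0.70 to miR-30e. Relative to miR-30a its lag was 10.3, 9.70 and 10.5 cycles in EC-Dicerflox and 9.07, 9.50 and 9.64 cycles in EC-DicerWT aortas. The groups did not overlap for 4 of the 5 members, and for miR-30d they did. The exact permutation P was 0.1 for these 4, the smallest possible, and 0.2 for miR-30d, with adjusted P values from 0.125 to 0.2 over the 5 comparisons. This comparison was added after the data were seen, and it shares 1 measurement of miR-384-5p across the 5 values. They are thus not 5 separate results. How many of all assays separate the groups in such differences is not given here.

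**Figure D5:**
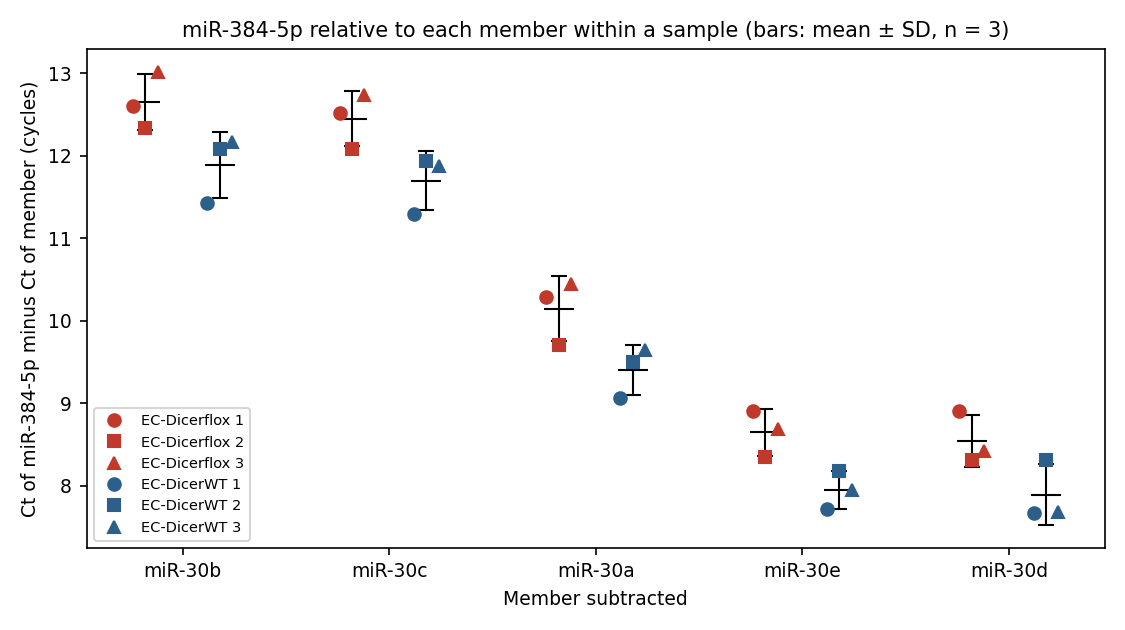
Ct of miR-384-5p minus the Ct of each miR-30 member within the same sample, in cycles (vertical axis), by member (horizontal axis), group (colour) and replicate number (marker shape), with bars for the group mean ± SD (n = 3). The EC-Dicerflox values lie above the EC-DicerWT values for 4 members and overlap with them for miR-30d.

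The other assays were ranked by how closely their raw Ct followed that of the family. Raw Ct carries the shift of the third replicates, which was above 0 in 84.8% of the assays detected in all samples. Part of any likeness is therefore shared by most assays. The measure was the SD over the 6 samples of the Ct difference to the mean Ct of the 5 members, which had a median of 0.47 cycles over the 389 other assays detected in all samples. It was smallest for miR-125b-5p (0.06 cycles), miR-532-5p (0.07), miR-29a (0.08), miR-26b (0.08) and miR-676* (0.09), of which miR-29a represses collagens and other matrix genes. For the members, each against the mean of the other 4, it was between 0.10 cycles for miR-30c and 0.30 cycles for miR-30d. These values are not like those of the 5 closest assays, which were picked as the smallest of 389 and set against the mean of all 5 members. With the Spearman rank correlation of the levels as the measure, 0 of these 5 were among the first 5, so the choice of the closest miRNAs depended on the measure.

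Beside the 5 miR-30 members, the 3 assays of the miR-29 family had changes of 0.0027 for miR-29a, -0.30 for miR-29b and -0.04 for miR-29c, with a median of -0.04. In the let-7 family with miR-98, 9 of 9 assays had a change below 0, beside 61.7% of all tested assays, with a median of -0.28. The groups did not overlap in 4 of these 9, beside 9.79% of all tested assays, and 1 had an unadjusted limma P under 0.05, miR-98 (-2.67 ± 0.87, SE, limma P of 0.026 before and 0.98 after adjustment). The median over the miR-30 members was 0.02, and no test of these differences between families was made. Of the miRNAs known to respond to blood flow or to regulate inflammation in ECs, 14 of 15 listed had an assay of that name. Of these 10 had a change below 0 and 4 above, beside 61.7% below 0 among all tested assays. The median change was -0.10, as over all tested assays, and 0 of the 14 passed an unadjusted limma P of 0.05, beside 4.78% of all, or an adjusted one. All of these values were near those of the whole array. Named after their values were seen, they include miR-10a (1.19 ± 0.81, SE, limma P of 0.20 before and 0.99 after adjustment), which had the largest change of the 14 and the one pair of groups that did not overlap, miR-126-3p (-0.13 ± 0.32, SE), miR-146a (-0.0043 ± 0.24, SE), a repressor of NF-κB signalling, and miR-712 (0.39 ± 0.45, SE), which is raised by disturbed flow. Of the marker miRNAs of endothelium (2 of 2 tested), smooth muscle (2 of 2), leukocytes (4 of 4), erythrocytes (2 of 3 listed), striated muscle (4 of 7), neurons (2 of 2) and hepatocytes (1 of 1), 1 had an unadjusted limma P under 0.05, the striated muscle miR-208 (-1.65 ± 0.53, SE, adjusted limma P of 0.98). This is near the share among all tested assays, 4.78%.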

How the data were processed

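Total RNA of whole aortas was analysed in 3 EC-Dicerflox and 3 EC-DicerWT mice, grouped by the sample titles. Per the study's methods, the authors reverse transcribed and preamplified it with rodent primer pools and ran TaqMan arrays. Raw Ct values, as the authors deposited them, were used, with undetected wells at 40 and no reference RNA subtracted. How the signal level was set is not given in the sources used here. Cards were told apart by the form of the assay number (335 miRNA assays on card A, 261 on card B). All 5 members and miR-384-5p were on card A, miR-30b* on card B. Ct values have no read depth, and precision is limited by the number of mice.

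Levels were the mean Ct of 5 control RNAs, each averaged over the cards, minus the Ct of the assay. The 439 miRNA assays with a Ct under 40 in at least 3 samples were fitted together in R 4.3.3 with limma 3.58.1 (lmFit, eBayes, two-sided), with Benjamini-Hochberg adjustment over all of them. This test was first tested on simulated data. Intervals are 95% intervals. Differences within a sample were compared by two-sided exact permutation tests over the 20 assignments (scipy 1.17.1). Alternatives were other references, filters, a Ct limit of 35, an intensity trend, a replicate block, replicates 1 and 2 alone, leaving out each replicate and the third replicates as a batch term. Named were the members, other strands of their hairpins, assays with the same seed, the 5 closest assays and listed markers with an unadjusted P under 0.05. The members and lists were chosen with earlier results of these data known.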

Additional observations from a re-analysis of the deposited data

Results flagged for a closer look

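A plant miRNA, absent from mice and used in no comparison, had a Ct of 39.776 on card A in EC-Dicerflox replicate 1, a signal in data outside the comparisons. It was at the limit of 40 in the other 5 samples, and the latest Ct among the 5 miR-30 members was 21.0.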

How the results depend on the processing

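In 18 alternative fits, 0 of the 5 miR-30 members had an unadjusted or adjusted limma P under 0.05, beside 8 to 28 of all tested assays at the unadjusted threshold. The changes were close to 0 and their sign was not fixed. It turned with U6 alone for miR-30a (-0.36), miR-30b (-0.34) and miR-30c (-0.35), with snoRNA135, snoRNA202 and U6, chosen after the data were seen (-0.094, -0.078 and -0.090), and with replicates 1 and 2 only (-0.038, -0.035 and -0.059). It turned for miR-30e with the global mean (0.028) and snoRNA135 alone (0.024). The mean change over the 5 members, -0.0031, moved to -0.38 with U6 alone, where the median of all assays moved as well. Leaving out each replicate gave changes from -0.16 to 0.14 for miR-30a, from -0.17 to 0.22 for miR-30b, from -0.15 to 0.15 for miR-30c, from -0.17 to -0.0046 for miR-30d, from -0.070 to 0.0061 for miR-30e and from -0.12 to 0.08 for their mean. Differences within a sample ranged from -0.047 to 0.11 for miR-30a against miR-30b, -0.037 to 0.072 for miR-30a against miR-30c, -0.13 to 0.31 for miR-30d against miR-30a, -0.089 to 0.17 for miR-30e against miR-30a, -0.026 to 0.071 for miR-30c against miR-30b, -0.14 to 0.35 for miR-30d against miR-30b, -0.10 to 0.21 for miR-30e against miR-30b, -0.11 to 0.29 for miR-30d against miR-30c, -0.077 to 0.14 for miR-30e against miR-30c and -0.049 to 0.15 for miR-30d against miR-30e. That of miR-30a and miR-30c was -0.0205 with replicates 1 and 2 only. MiR-30b* ranged from -0.036 to 0.70 and relative to miR-30b from -0.76 to 0.26. MiR-384-5p was lower in all 18 alternative fits (-1.10 to -0.56, adjusted limma P from 0.72 to 0.999, unadjusted P under 0.05 in 7), and from -0.87 to -0.56 with each replicate left out. The order of miR-30d and miR-30e turned with replicates 1 and 2 only, where 3 of 5 members kept their place. Of the 5 closest assays, 3 or 4 were kept when a replicate was left out. What caused these shifts was not tested.

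With a replicate block, 0 members passed, the changes were the same (mean of -0.0031), and miR-384-5p had an unadjusted limma P of 0.11. Over all assays 17 passed the unadjusted threshold with the block and 21 without it, with 28 where a batch term stood for the third replicates and 17 for replicates 1 and 2 only. In these last fits 1 assay passed the adjusted limma threshold, miR-1906, picked out once its values were known (6.83 with an adjusted P of 0.0062 and 6.50 with an adjusted P of 0.045), and in the other alternatives 0 did. Deviations of same-numbered samples from their group means correlated by 0.147, -0.062 and 0.31 for replicates 1, 2 and 3. The main fit did not pair the mice, and the replicate block was kept as an alternative. Leaving out EC-Dicerflox replicate 2 gave 8 assays past the unadjusted threshold.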
